A study of Homo sapiens with 11 samples.

Results

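The 36 genes described here carry glucose from its uptake to pyruvate, lactate and the pentose phosphate pathway in human acute myeloid leukaemia (AML) cells exposed to FHD-286. They were chosen by name as the Ensembl rows of the count table that map to a fixed set of symbols, and all 36 were found among the 58037 rows and passed the filter on low counts. The rule itself reads only symbols, but the set was drawn up with earlier results of these data known. By role they are 2 glucose transporters, 3 hexokinases, 7 genes of upper glycolysis, 3 PFKFB regulators, 7 genes of lower glycolysis, 4 genes of lactate and its transport, 7 genes of pyruvate entry into mitochondria and 3 pentose phosphate enzymes.

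RNA was sequenced in 11 libraries of 4 groups. They were OCI-AML3 exposed to 100 nM FHD-286 for 16 h (n = 3), OCI-AML3 controls (n = 3), OCI-AML3-FLT3-ITD exposed to the same dose for the same time (n = 2) and OCI-AML3-FLT3-ITD controls (n = 3). OCI-AML3 is an established AML line, OCI-AML3-FLT3-ITD is named for the internal tandem duplication of the receptor tyrosine kinase FLT3, and FHD-286 inhibits BRG1 and BRM, the ATPases (SMARCA4 and SMARCA2) of BAF chromatin remodelling complexes. All cells were grown in RPMI medium with serum, and the labels give neither the glucose concentration nor whether controls received a vehicle. How the duplication was introduced, and whether the line is 1 clone, is not given in the sources used here. The comparisons ask how the inhibitor moves these genes in each line, whether its effect differs between the lines, and how the untreated lines differ.

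Glucose enters blood cells through facilitative transporters, is trapped as glucose 6-phosphate by hexokinases and is cut to pyruvate in the cytosol. Pyruvate is either reduced to lactate and exported with a proton, or carried into mitochondria and oxidised by the pyruvate dehydrogenase complex, which PDK kinases switch off. The pentose phosphate pathway branches off at glucose 6-phosphate and yields NADPH and ribose, and leukaemia cells are known for high glycolytic flux. Transcript levels do not measure that flux.

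Levels are given as CPM, counts scaled to a common library size with TMM factors. Changes are log2 fold changes with an approximate standard error (SE) and a Benjamini-Hochberg adjusted p over all 18908 genes tested by edgeR's quasi-likelihood test, and a gene is called where that p is under 0.05. The labels do not state whether replicates were grown separately, so each p-value measures only how these libraries spread, which may be technical. Total counts ran from 58397190 to 79172389 per library. The myeloid markers CD33, SPI1, CEBPA, CSF3R, LYZ and PRTN3 were measured in all groups, and MPO and ITGAM were at about 1 CPM or below in treated cells. ITGAM was as low in OCI-AML3 controls, with a highest level of 1.09 CPM there and 1.12 CPM with FHD-286. PRTN3 was the largest of the markers in controls of both lines. The list of 8 summed to 465.7 to 501.5 CPM with FHD-286 and 2699.9 to 3106.9 CPM in controls of OCI-AML3, and to 286.6 to 319.6 CPM with FHD-286 and 1705.3 to 2017.0 CPM in controls of OCI-AML3-FLT3-ITD. Lists of erythroid, lymphoid and stromal markers each summed to at most 3.92 CPM, and HBB, GP9 and PF4 had 0 counts in all groups. The fall of the summed myeloid markers accompanied each change with FHD-286 below, and its part in them was not tested.

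Replicate 2 of the OCI-AML3-FLT3-ITD controls, called here the library labelled FLT3-ITD control 2, stood apart from its group. Its FLT3 level was 53.4 CPM, against 178 and 203 CPM in FLT3-ITD controls 1 and 3 and 39.2 to 43.3 CPM in the 6 OCI-AML3 libraries. Across genes, its log CPM had a correlation of 0.957 with FLT3-ITD control 1 and 0.979 to 0.984 with the OCI-AML3 controls, while FLT3-ITD controls 1 and 3 had one of 0.993. Mitochondrial genes took 8.85% of its counts, the highest share of all libraries. The common biological coefficient of variation, which all comparisons share, was 0.193 with it and 0.0652 without it. Whether its label is right, or whether it holds a mixture, was not tested, and every FLT3-ITD control value that includes it carries that doubt. Members whose call with FHD-286 changed without it are therefore given both ways.

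With FHD-286, more of these transcripts fell than rose in both lines. In OCI-AML3, 24 of the 36 members were called lower, against a background of 21.5% of all genes tested, and 3 were called higher, against a background of 19.8%. Their median log2 fold change was -0.54, where that of all genes was 0.01. In OCI-AML3-FLT3-ITD, 18 members were called lower, against 14.9% of all genes, and 1 higher, against 15.6%, with a median of -0.45 beside -0.02 for all genes. Of the members called lower, 17 were shared, which is 70.8% of those in OCI-AML3 and 94.4% of those in OCI-AML3-FLT3-ITD. No member was called in opposite directions. The same overlap was not counted over all genes, so these shares have no background and are not a trait of the members. The lines have separate controls. Without regard to the test, the CPM ranges of treated and control libraries did not overlap for 26 members that were lower and 5 that were higher in OCI-AML3, against 33.2% and 32.8% of all genes. In OCI-AML3-FLT3-ITD this held for 23 lower and 2 higher members, against 22.9% and 26.1%. In bulk RNA, fewer cells of a type and less RNA per cell cannot be told apart, and CPM measure shares of a library, not amounts per cell.

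All members together took 1.28 to 1.32% of counts in OCI-AML3 with FHD-286, against 1.68 to 1.86% in OCI-AML3 controls. The shares were 1.24 and 1.27% in OCI-AML3-FLT3-ITD with FHD-286, against 1.49 to 1.88% in its controls. The treated and control ranges did not overlap in either line. Scaling by library totals alone gave 6 members higher and 21 lower in OCI-AML3, where the median of all genes then moved to 0.17 and that of the members to -0.39. In OCI-AML3-FLT3-ITD it gave 3 higher and 17 lower, with medians of -0.34 for the members and 0.09 for all genes. The shares of all genes called under this scaling were not counted. Without the library labelled FLT3-ITD control 2, 25 members were lower and 5 higher in OCI-AML3, against 29.8% and 29% of all genes. In OCI-AML3-FLT3-ITD 24 were then lower and 4 higher, against 24.2% and 24.8%.

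**Figure D1:**
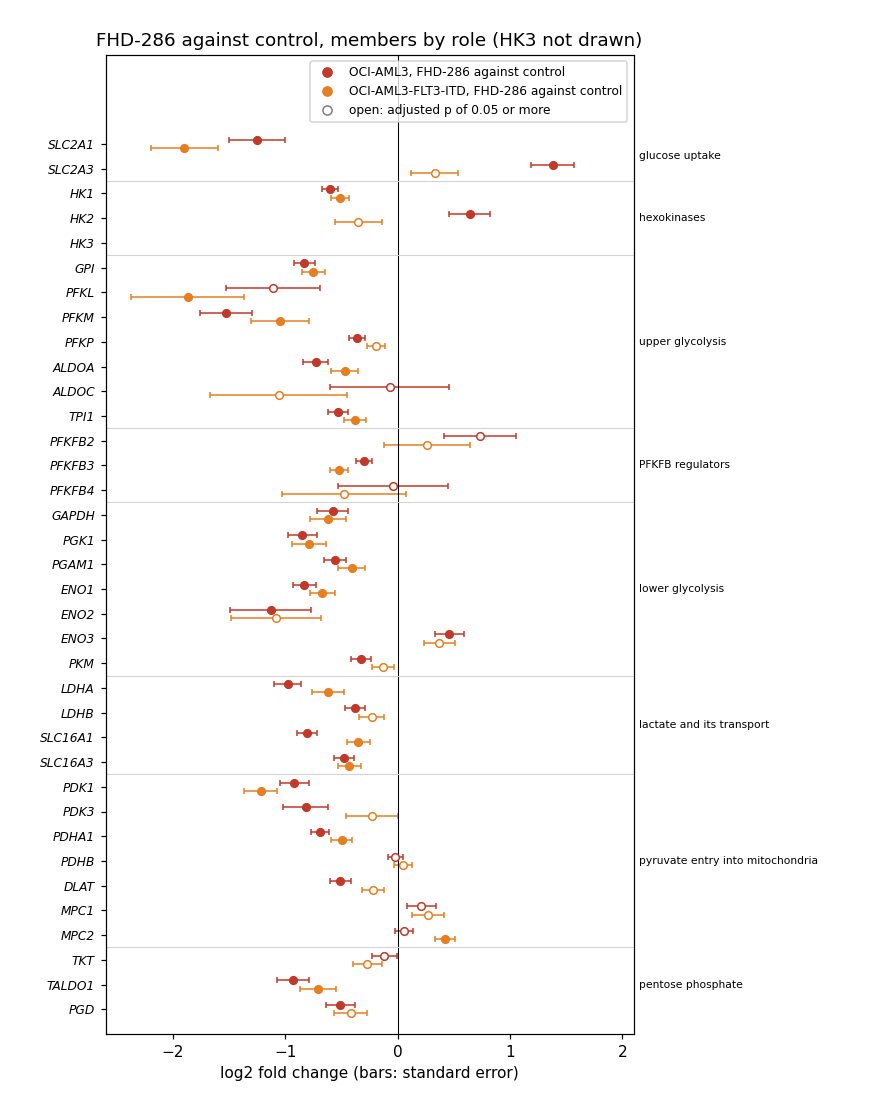
Log2 fold changes of FHD-286 against control (x axis) with standard errors for the members (y axis, grouped by role), in OCI-AML3 (red) and OCI-AML3-FLT3-ITD (orange). Filled points are called at an adjusted p under 0.05, and most points lie left of 0, while SLC2A3 and HK2 lie right of it in OCI-AML3 at 1.38 and 0.64 (HK3, with 0 counts in both treated FLT3-ITD libraries, is not drawn).

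The 2 glucose transporters moved in opposite directions in OCI-AML3. SLC2A1 (ENSG00000117394.19, GRCh38 chromosome 1, 42925375 to 42959176), which encodes the widely expressed transporter GLUT1, had 29.1, 29.2 and 27.8 CPM with FHD-286, against 66.9, 63.4 and 74.7 CPM in OCI-AML3 controls. In OCI-AML3-FLT3-ITD it had 19.7 and 17.8 CPM with FHD-286, against 52.5, 109.0 and 48.8 CPM in controls. Every treated library lay below every control, and the control at 109.0 CPM was replicate 2. SLC2A1 fell by 1.25 on the log2 scale in OCI-AML3 (SE 0.25, adjusted p = 0.00245, 2.38-fold lower) and by 1.90 in OCI-AML3-FLT3-ITD (SE 0.30, adjusted p = 0.000892). Without replicate 2 the second value was -1.43 (SE 0.09, adjusted p = 2.22e-11). It was the largest called fall in OCI-AML3-FLT3-ITD among the members.

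SLC2A3 (ENSG00000059804.15, GRCh38 chromosome 12, 7919230 to 7936275) encodes GLUT3, a transporter with high affinity for glucose. It had 182.0, 172.3 and 190.1 CPM in OCI-AML3 with FHD-286, against 69.0, 68.4 and 72.1 CPM in OCI-AML3 controls. It had 168.0 and 151.3 CPM in OCI-AML3-FLT3-ITD with FHD-286, against 99.8, 178.7 and 101.2 CPM in its controls. The groups were apart in OCI-AML3 and overlapped in OCI-AML3-FLT3-ITD through control replicate 2. SLC2A3 rose in OCI-AML3 by 1.38 on the log2 scale (SE 0.19, adjusted p = 0.000226, 2.6-fold higher). In OCI-AML3-FLT3-ITD the change of 0.33 did not pass the test (SE 0.21, adjusted p = 0.252), and without replicate 2 it was 0.67 (SE 0.07, adjusted p = 1.62e-07). Counts of its near-identical paralog SLC2A14 were at most 0.183% of those of SLC2A3 in any library.

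Among hexokinases, HK1 and HK2 also parted in OCI-AML3. HK1 (ENSG00000156515.21, GRCh38 chromosome 10, 69269984 to 69401884), the broadly expressed isozyme, had 94.7, 92.6 and 90.5 CPM with FHD-286, against 138.5, 130.5 and 152.9 CPM in OCI-AML3 controls. In OCI-AML3-FLT3-ITD it had 84.3 and 82.1 CPM with FHD-286, against 118.9, 122.2 and 115.1 CPM in controls. The treated libraries were below all controls in both lines, and replicate 2 of the FLT3-ITD controls was close to its group. HK1 fell by 0.60 in OCI-AML3 (SE 0.07, adjusted p = 5.57e-05) and by 0.51 in OCI-AML3-FLT3-ITD (SE 0.08, adjusted p = 0.000656).

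HK2 (ENSG00000159399.9, GRCh38 chromosome 2, 74833981 to 74893359), the insulin- and hypoxia-responsive isozyme that many tumours express, had 297.8, 294.3 and 294.8 CPM in OCI-AML3 with FHD-286, against 179.5, 193.6 and 197.1 CPM in OCI-AML3 controls. It had 144.0 and 133.4 CPM in OCI-AML3-FLT3-ITD with FHD-286, against 131.5, 247.4 and 153.0 CPM in its controls. The groups were apart only in OCI-AML3. HK2 rose there by 0.64 (SE 0.18, adjusted p = 0.0174), a call lost without OCI-AML3 control replicate 1 (0.60, adjusted p = 0.063). In OCI-AML3-FLT3-ITD the value was -0.35 (SE 0.21, adjusted p = 0.224), or -0.04 without control replicate 2 (SE 0.08, adjusted p = 0.73). HK3, an isozyme found mainly in myeloid cells, was near the detection limit, at 0.067 to 0.194 CPM in OCI-AML3 with FHD-286 and 0.156 to 0.329 CPM in its controls. It had 0 counts in both treated FLT3-ITD libraries, where 3 counts correspond to 0.0412 and 0.0366 CPM.

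The sequences upstream of SLC2A1, the member with the largest called fall in OCI-AML3-FLT3-ITD, and of HK1 and HK2, which share a step of the pathway and moved apart in OCI-AML3, are shown here. Each run holds the 250 bases before the start listed first by RefSeq for GRCh38.p14, 5′ to 3′ on the gene's strand. Capitals mark ACGTG, the core of the motif bound by hypoxia-inducible factors, GCGTG, its other common form, on either strand, and TATAAA, the TATA box, on the gene's strand.
SLC2A1, chr1:42958869-42959118, minus strand: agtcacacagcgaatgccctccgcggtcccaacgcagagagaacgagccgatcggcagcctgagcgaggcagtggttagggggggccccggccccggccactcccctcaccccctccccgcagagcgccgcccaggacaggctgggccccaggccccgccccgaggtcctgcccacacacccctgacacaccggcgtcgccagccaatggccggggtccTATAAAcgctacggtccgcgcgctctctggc
HK1, chr10:69269750-69269999, plus strand: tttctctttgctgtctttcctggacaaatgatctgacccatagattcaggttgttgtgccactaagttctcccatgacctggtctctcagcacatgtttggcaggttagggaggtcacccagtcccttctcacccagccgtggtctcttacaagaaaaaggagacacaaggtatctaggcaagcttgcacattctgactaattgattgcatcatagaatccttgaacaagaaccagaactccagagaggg
HK2, chr2:74833877-74834126, plus strand: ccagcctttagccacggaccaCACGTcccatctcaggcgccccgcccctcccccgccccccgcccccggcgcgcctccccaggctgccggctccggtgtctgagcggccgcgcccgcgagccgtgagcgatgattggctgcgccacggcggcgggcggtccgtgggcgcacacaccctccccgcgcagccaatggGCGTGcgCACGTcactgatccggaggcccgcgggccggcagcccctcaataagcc
The HK2 window held 2 matches to ACGTG and 1 to GCGTG, the SLC2A1 window held 1 match to TATAAA, and the HK1 window held 0 matches to any of them. HK1 has 7 listed starts and HK2 has 2, and gene counts do not show which start these cells used. SLC2A3 had no entry in the promoter table used here.

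**Figure D2:**
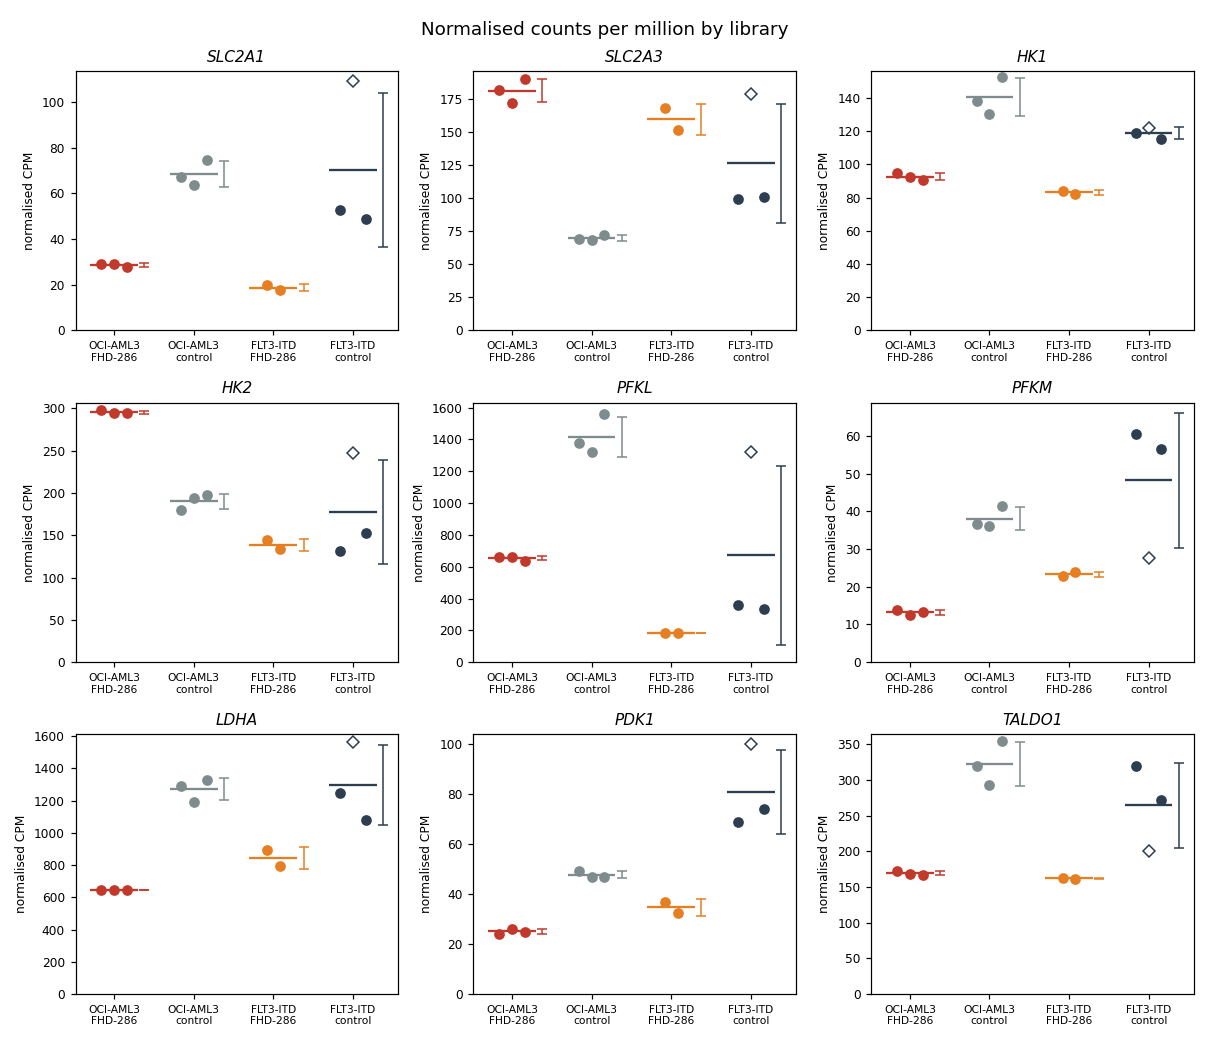
Normalised CPM (y axes, from 0) of 9 members in every library, with FHD-286 left of the control of the same line; lines are group means, bars are SD, and the open diamond is OCI-AML3-FLT3-ITD control replicate 2. SLC2A3 and HK2 are above the controls in treated OCI-AML3, the other 7 are below them, and the diamond stands far above its group for PFKL, at 1320.0 CPM.

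Upper glycolysis turns glucose 6-phosphate into triose phosphates. Of its 7 members, 5 were called lower in each line, and the median was -0.73 in OCI-AML3 and -0.75 in OCI-AML3-FLT3-ITD. GPI (ENSG00000105220.14), the isomerase of the first step, had 320.8, 319.3 and 320.0 CPM in OCI-AML3 with FHD-286, against 550.1, 532.0 and 628.2 CPM in its controls. It had 331.2 and 313.6 CPM in OCI-AML3-FLT3-ITD with FHD-286, against 532.8, 600.4 and 492.1 CPM in its controls. The treated levels were alike in the lines and lay below all controls. GPI fell by 0.83 in OCI-AML3 (SE 0.09, adjusted p = 4.03e-05) and by 0.75 in OCI-AML3-FLT3-ITD (SE 0.10, adjusted p = 0.000357).

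Phosphofructokinase commits sugar to glycolysis as a tetramer of liver (PFKL), muscle (PFKM) and platelet (PFKP) subunits. PFKL (ENSG00000141959.16, GRCh38 chromosome 21, 44300051 to 44327376) had 664.3, 663.0 and 639.0 CPM in OCI-AML3 with FHD-286, against 1374.9, 1318.7 and 1559.4 CPM in its controls. It had 183.5 and 185.3 CPM in OCI-AML3-FLT3-ITD with FHD-286, against 359.5, 1320.0 and 336.9 CPM in its controls. The treated libraries were below all controls of their line, and control replicate 2 of OCI-AML3-FLT3-ITD was at the level of the OCI-AML3 controls. The change was -1.11 in OCI-AML3, which missed the threshold (SE 0.42, adjusted p = 0.0569), and -1.87 in OCI-AML3-FLT3-ITD (SE 0.50, adjusted p = 0.0172). Without replicate 2, PFKL was -1.11 (SE 0.07, adjusted p = 7.38e-12) in OCI-AML3 and -0.92 (SE 0.08, adjusted p = 7.74e-09) in OCI-AML3-FLT3-ITD.

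PFKM (ENSG00000152556.15, GRCh38 chromosome 12, 48105139 to 48146404) had 13.8, 12.4 and 13.4 CPM in OCI-AML3 with FHD-286, against 36.6, 36.1 and 41.5 CPM in its controls. It had 22.9 and 23.8 CPM in OCI-AML3-FLT3-ITD with FHD-286, against 60.5, 27.7 and 56.5 CPM in its controls, where the lowest was replicate 2. Treated and control libraries did not overlap in either line. PFKM fell by 1.53 in OCI-AML3 (SE 0.23, adjusted p = 0.000409), the largest called fall among members there, and by 1.05 in OCI-AML3-FLT3-ITD (SE 0.26, adjusted p = 0.0119). PFKP averaged 116.3 ± 1.1 CPM with FHD-286 and 149.6 ± 12.4 CPM in controls of OCI-AML3 (SD, n = 3 each), and fell by 0.36 (SE 0.07, adjusted p = 0.00158). In OCI-AML3-FLT3-ITD its change of -0.19 missed the threshold (SE 0.08, adjusted p = 0.0885), and without control replicate 2 the value of -0.19 was called (SE 0.07, adjusted p = 0.0446).

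ALDOA (ENSG00000149925.17), the main aldolase, had 558.2, 542.3 and 548.1 CPM in OCI-AML3 with FHD-286, against 882.7, 834.4 and 1019.3 CPM in its controls. It had 1044.7 and 1007.5 CPM in OCI-AML3-FLT3-ITD with FHD-286, against 1637.9, 1220.1 and 1396.0 CPM in its controls. Treated libraries were below their controls in both lines, and the treated FLT3-ITD libraries reached the range of the untreated OCI-AML3 ones. ALDOA fell by 0.73 in OCI-AML3 (SE 0.11, adjusted p = 0.000409) and by 0.47 in OCI-AML3-FLT3-ITD (SE 0.12, adjusted p = 0.0167). Of its exon length, 53.5% overlaps other annotated genes, and the strand setting of the counting is not given in the sources used here. TPI1, the triose phosphate isomerase, fell by 0.53 in OCI-AML3 (SE 0.09, adjusted p = 0.000975) and by 0.38 in OCI-AML3-FLT3-ITD (SE 0.10, adjusted p = 0.0191). ALDOC, the aldolase best known from brain, was not called in either line, at -0.07 (SE 0.53) and -1.06 (SE 0.61), and the second value was 0.22 without FLT3-ITD control replicate 2.

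The PFKFB enzymes make and break fructose 2,6-bisphosphate, the strongest activator of phosphofructokinase. PFKFB3, in which the kinase activity prevails, fell by 0.30 in OCI-AML3 (SE 0.07, adjusted p = 0.00558) and by 0.52 in OCI-AML3-FLT3-ITD (SE 0.08, adjusted p = 0.000751). The call in OCI-AML3 was lost without its treated replicate 3 (-0.25, adjusted p = 0.0548) and with scaling by library totals (-0.14, adjusted p = 0.131). PFKFB2 was low, with 0.751, 0.921 and 0.855 CPM in OCI-AML3 with FHD-286, against 0.658, 0.406 and 0.467 CPM in its controls, and 0.22 and 0.378 CPM in OCI-AML3-FLT3-ITD with FHD-286, against 0.156, 0.346 and 0.25 CPM in its controls. The treated OCI-AML3 libraries were above their controls, but its change of 0.73 missed the threshold (SE 0.32, adjusted p = 0.0906) and was called without FLT3-ITD control replicate 2 (0.73, adjusted p = 0.0257), in a fit of the OCI-AML3 libraries alone (0.74, adjusted p = 0.0106) and with library totals (0.88, adjusted p = 0.0485). With all libraries PFKFB4 was not called in either line. In OCI-AML3-FLT3-ITD it had 27 and 27.1 CPM with FHD-286, against 17.9, 79.2 and 16.1 CPM in controls. Its change there was -0.48 with all libraries (SE 0.55, adjusted p = 0.551) and 0.67 without control replicate 2 (SE 0.10, adjusted p = 6.06e-06), so 1 library set its direction.

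Lower glycolysis runs from glyceraldehyde 3-phosphate to pyruvate and yields the ATP of the pathway. Of its 7 members, 6 were called lower and ENO3 higher in OCI-AML3, and 4 were called lower and none higher in OCI-AML3-FLT3-ITD. GAPDH (ENSG00000111640.14), the oxidising step and a common reference gene, had 2153.3, 2101.3 and 2087.1 CPM in OCI-AML3 with FHD-286, against 3106.3, 2913.0 and 3430.7 CPM in its controls. It had 1627.3 and 1614.0 CPM in OCI-AML3-FLT3-ITD with FHD-286, against 2358.3, 3101.7 and 2005.6 CPM in its controls. All treated libraries were below the controls of their line. GAPDH fell by 0.58 in OCI-AML3 (SE 0.14, adjusted p = 0.00681) and by 0.62 in OCI-AML3-FLT3-ITD (SE 0.16, adjusted p = 0.0131). Of the 65 annotated GAPDH pseudogene rows, 35 held counts, which came to 0.832 to 1.13% of the GAPDH count per library.

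PGK1, on the X chromosome, makes the first ATP of the pathway. It had 676.0, 676.7 and 662.5 CPM in OCI-AML3 with FHD-286, against 1200.5, 1110.7 and 1320.6 CPM in its controls. In OCI-AML3-FLT3-ITD it had 664.5 and 648.2 CPM with FHD-286, against 1061.9, 1394.9 and 941.2 CPM in controls. The treated libraries of both lines met at nearly the same level, below all controls. PGK1 fell by 0.85 (SE 0.13, adjusted p = 0.000413) in OCI-AML3 and by 0.79 (SE 0.15, adjusted p = 0.00251) in OCI-AML3-FLT3-ITD. PGAM1, the mutase of the next step, fell by 0.56 (SE 0.10, adjusted p = 0.00152) in OCI-AML3 and by 0.41 (SE 0.12, adjusted p = 0.0218) in OCI-AML3-FLT3-ITD.

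The 3 enolases differ in tissue: ENO1 is ubiquitous, ENO2 neuronal and ENO3 of muscle. ENO1 (ENSG00000074800.13, GRCh38 chromosome 1, 8861000 to 8879250) had 1687.5, 1659.7 and 1645.9 CPM in OCI-AML3 with FHD-286, against 2872.7, 2707.3 and 3276.3 CPM in its controls. It had 1478.5 and 1425.2 CPM in OCI-AML3-FLT3-ITD with FHD-286, against 2322.9, 2552.5 and 2046.9 CPM in its controls. The groups did not overlap. ENO1 fell by 0.83 (SE 0.10, adjusted p = 9.5e-05) in OCI-AML3 and by 0.67 (SE 0.11, adjusted p = 0.00146) in OCI-AML3-FLT3-ITD.

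ENO2 (ENSG00000111674.8, GRCh38 chromosome 12, 6913745 to 6923698) had 1.53, 1.79 and 1.68 CPM in OCI-AML3 with FHD-286, against 3.47, 3.69 and 3.79 CPM in its controls. It had 4.6 and 4.45 CPM in OCI-AML3-FLT3-ITD with FHD-286, against 6.04, 17.1 and 5.69 CPM in its controls. Treated libraries were below controls in both lines. ENO2 fell by 1.13 in OCI-AML3 (SE 0.36, adjusted p = 0.0293), but the call was lost without any 1 of the 6 OCI-AML3 libraries, with adjusted p from 0.0591 to 0.089, and with library totals (-0.97, adjusted p = 0.055). In OCI-AML3-FLT3-ITD its change of -1.08 missed the threshold (SE 0.40, adjusted p = 0.0659), and without control replicate 2 it was -0.37 (SE 0.12, adjusted p = 0.0148). ENO3 (ENSG00000108515.17, GRCh38 chromosome 17, 4948092 to 4957131) averaged 9.43 ± 0.0852 CPM with FHD-286 and 6.87 ± 0.942 CPM in controls of OCI-AML3 (SD, n = 3 each). It rose there by 0.46 (SE 0.13, adjusted p = 0.0181), a call lost without control replicate 1 or 3 or treated replicate 1 or 2, with adjusted p from 0.0509 to 0.0756. In OCI-AML3-FLT3-ITD the value of 0.37 missed the threshold (SE 0.14, adjusted p = 0.0756), and without control replicate 2 it was called, at 0.42 (SE 0.12, adjusted p = 0.00622).

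The upstream sequences of the enolases are shown as those of 1 family whose members moved apart in OCI-AML3, with the same capitals, source and build as above.
ENO1, chr1:8878687-8878936, minus strand: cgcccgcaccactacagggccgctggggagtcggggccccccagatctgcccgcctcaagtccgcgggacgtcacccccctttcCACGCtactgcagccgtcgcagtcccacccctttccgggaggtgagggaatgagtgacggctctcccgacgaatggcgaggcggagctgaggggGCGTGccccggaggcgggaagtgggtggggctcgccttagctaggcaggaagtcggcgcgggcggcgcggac
ENO2, chr12:6914330-6914579, plus strand: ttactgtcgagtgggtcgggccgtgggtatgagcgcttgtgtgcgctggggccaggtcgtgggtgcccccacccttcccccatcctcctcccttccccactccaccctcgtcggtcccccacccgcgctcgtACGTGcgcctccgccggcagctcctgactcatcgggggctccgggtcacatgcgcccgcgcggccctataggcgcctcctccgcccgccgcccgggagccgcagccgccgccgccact
ENO3, chr17:4950302-4950551, plus strand: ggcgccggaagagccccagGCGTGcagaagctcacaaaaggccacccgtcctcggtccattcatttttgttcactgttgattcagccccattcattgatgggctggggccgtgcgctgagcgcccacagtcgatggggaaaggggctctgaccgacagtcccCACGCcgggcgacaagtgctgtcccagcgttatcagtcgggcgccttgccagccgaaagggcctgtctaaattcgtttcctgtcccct
ENO1 and ENO3, which moved in opposite directions, each held 2 matches to GCGTG, and ENO2 held 1 match to ACGTG. ENO3 has 2 listed starts, and which of them these cells used is not known from gene counts. PKM, whose spliced forms make the muscle-type pyruvate kinases, had the smallest of the called falls in lower glycolysis, at -0.33 in OCI-AML3 (SE 0.09, adjusted p = 0.0168). That call was lost without control replicate 3 (-0.25, adjusted p = 0.0672) or treated replicates 2 (-0.32, adjusted p = 0.0552) or 3 (-0.29, adjusted p = 0.0892), and with library totals (-0.17, adjusted p = 0.113). In OCI-AML3-FLT3-ITD PKM was not called (-0.13, SE 0.10, adjusted p = 0.378), and gene counts do not separate its spliced forms.

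Lactate dehydrogenase reduces pyruvate, and its LDHA subunit favours that direction. LDHA (ENSG00000134333.13, GRCh38 chromosome 11, 18394388 to 18408425) had 645.2, 642.6 and 645.5 CPM in OCI-AML3 with FHD-286, against 1292.0, 1193.7 and 1329.2 CPM in its controls. In OCI-AML3-FLT3-ITD it had 892.7 and 793.7 CPM with FHD-286, against 1246.1, 1565.0 and 1080.6 CPM in controls. The treated libraries lay below all controls and were lower in OCI-AML3 than in OCI-AML3-FLT3-ITD. LDHA fell by 0.98 in OCI-AML3 (SE 0.12, adjusted p = 0.000109, 1.97-fold lower) and by 0.62 in OCI-AML3-FLT3-ITD (SE 0.14, adjusted p = 0.00641). LDHB, the subunit typical of oxidative tissue, fell by 0.38 in OCI-AML3 (SE 0.09, adjusted p = 0.00767), and its change of -0.23 in OCI-AML3-FLT3-ITD missed the threshold (SE 0.11, adjusted p = 0.122). Without FLT3-ITD control replicate 2 the second value was -0.32 and was called (SE 0.08, adjusted p = 0.00254). Of LDHB exon length, 33.4% overlaps another annotated gene.

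The monocarboxylate transporters carry lactate and pyruvate across the plasma membrane. SLC16A1, which encodes MCT1, had 99.6, 107.6 and 105.6 CPM in OCI-AML3 with FHD-286, against 180.7, 183.6 and 182.6 CPM in its controls. It had 127.2 and 115.4 CPM in OCI-AML3-FLT3-ITD with FHD-286, against 161.6, 133.3 and 170.4 CPM in its controls, the lowest being replicate 2. Controls and treated libraries were far apart in OCI-AML3 and nearly met in OCI-AML3-FLT3-ITD. SLC16A1 fell by 0.81 in OCI-AML3 (SE 0.09, adjusted p = 5.1e-05) and by 0.35 in OCI-AML3-FLT3-ITD (SE 0.10, adjusted p = 0.0213). SLC16A3, which encodes the exporter MCT4, fell by 0.48 (SE 0.09, adjusted p = 0.00112) in OCI-AML3 and by 0.43 (SE 0.10, adjusted p = 0.00671) in OCI-AML3-FLT3-ITD.

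Pyruvate entry into mitochondria held members that fell and members that did not. PDK1 (ENSG00000152256.13, GRCh38 chromosome 2, 172555373 to 172608669), a kinase that inactivates pyruvate dehydrogenase and is a textbook target of hypoxia-inducible factor, had 24.2, 26.2 and 24.9 CPM in OCI-AML3 with FHD-286, against 49.3, 47.0 and 46.7 CPM in its controls. It had 37.0 and 32.3 CPM in OCI-AML3-FLT3-ITD with FHD-286, against 68.8, 100.1 and 73.9 CPM in its controls. Treated libraries were below all controls of their line. PDK1 fell by 0.92 in OCI-AML3 (SE 0.13, adjusted p = 0.00021) and by 1.22 in OCI-AML3-FLT3-ITD (SE 0.15, adjusted p = 0.000153). PDK3, another of these kinases, had 5.79, 5.92 and 5.56 CPM in OCI-AML3 with FHD-286, against 10.6, 9.72 and 10.1 CPM in its controls, and fell by 0.82 (SE 0.20, adjusted p = 0.0085). In OCI-AML3-FLT3-ITD PDK3 had 7.05 and 6.75 CPM with FHD-286, against 6.49, 11.5 and 6.28 CPM in controls, and was not called (-0.23, SE 0.23, adjusted p = 0.486). Without control replicate 2 that value was 0.11 (SE 0.10, adjusted p = 0.384).

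The complex that PDK1 and PDK3 control was itself uneven. PDHA1, the catalytic subunit that the kinases phosphorylate, had 89.8, 86.7 and 83.1 CPM in OCI-AML3 with FHD-286, against 141.1, 131.1 and 147.1 CPM in its controls. It had 93.2 and 82.3 CPM in OCI-AML3-FLT3-ITD with FHD-286, against 135.0, 113.5 and 122.4 CPM in its controls. The groups were apart in both lines. PDHA1 fell by 0.69 in OCI-AML3 (SE 0.08, adjusted p = 8.62e-05) and by 0.50 in OCI-AML3-FLT3-ITD (SE 0.09, adjusted p = 0.00271), and 21.3% of its exon length overlaps another gene. PDHB, its partner in the same enzyme, was not called, at -0.02 (SE 0.07, adjusted p = 0.827) and 0.05 (SE 0.08, adjusted p = 0.667). DLAT, the acetyltransferase core, fell by 0.51 in OCI-AML3 (SE 0.09, adjusted p = 0.000863) and had a change of -0.22 in OCI-AML3-FLT3-ITD that missed the threshold (SE 0.10, adjusted p = 0.11). Without FLT3-ITD control replicate 2 that value was -0.30 and was called (SE 0.08, adjusted p = 0.0023).

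MPC1 and MPC2 together form the carrier that takes pyruvate into the mitochondrial matrix. MPC2 rose in OCI-AML3-FLT3-ITD, with 36 and 33.5 CPM with FHD-286, against 25.6, 27.3 and 25.3 CPM in controls (log2 fold change 0.42, SE 0.09, adjusted p = 0.00554). It was the only member called higher there with all libraries, and the call was lost without treated replicate 1 (0.36, adjusted p = 0.0629). In OCI-AML3 the change of MPC2 was 0.06 (SE 0.08, adjusted p = 0.616), and 22.5% of its exon length overlaps another gene. With all libraries MPC1 was not called, at 0.21 in OCI-AML3 (SE 0.13, adjusted p = 0.203) and 0.27 in OCI-AML3-FLT3-ITD (SE 0.14, adjusted p = 0.178). Without FLT3-ITD control replicate 2 it was called higher in OCI-AML3, at 0.22 (SE 0.07, adjusted p = 0.0105), and not in OCI-AML3-FLT3-ITD, at 0.12 (SE 0.08, adjusted p = 0.243).

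In the pentose phosphate pathway, TALDO1 (ENSG00000177156.10, GRCh38 chromosome 11, 747329 to 765024), the transaldolase of the non-oxidative branch, had 172.6, 168.9 and 166.9 CPM in OCI-AML3 with FHD-286, against 319.4, 293.2 and 354.3 CPM in its controls. It had 162.5 and 161.7 CPM in OCI-AML3-FLT3-ITD with FHD-286, against 320.1, 200.5 and 272.4 CPM in its controls, the lowest being replicate 2. Treated libraries of both lines sat at one level, below all controls. TALDO1 fell by 0.93 (SE 0.14, adjusted p = 0.000421) in OCI-AML3 and by 0.71 (SE 0.16, adjusted p = 0.0074) in OCI-AML3-FLT3-ITD. PGD, which makes NADPH in the oxidative branch, fell by 0.51 in OCI-AML3 (SE 0.13, adjusted p = 0.00873), and its change of -0.42 in OCI-AML3-FLT3-ITD missed the threshold (SE 0.15, adjusted p = 0.0518). TKT, the transketolase, was not called with all libraries, at -0.12 (SE 0.11, adjusted p = 0.417) and -0.27 (SE 0.13, adjusted p = 0.135), although it shares the non-oxidative branch with TALDO1. Without FLT3-ITD control replicate 2, PGD was at -0.57 (SE 0.08, adjusted p = 7.04e-06) and TKT at -0.40 (SE 0.08, adjusted p = 0.000295) in OCI-AML3-FLT3-ITD.

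In the FLT3-ITD line the calls leaned on both treated libraries. With 1 of the 2 left out, the remaining library is assumed to vary like the other groups. Without treated replicate 1, the median log2 fold change of the members was -0.47, beside -0.02 for all genes. Without treated replicate 2, it was -0.42, beside -0.05 for all genes. PFKL, PFKM, ALDOA, TPI1, GAPDH, PGAM1, TALDO1 and SLC16A1 lost their calls in both cases. SLC16A1 also lost its call without FLT3-ITD control replicate 3 (-0.28, adjusted p = 0.0524). A fit of the FLT3-ITD libraries alone called 4 members lower and 0 higher, and the share of all genes called in it was not counted. They were SLC2A1, HK1, GPI and PDK1, the same 4 that kept their calls under each of the 19 alternatives tried.

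With FHD-286, SLC2A3 took the place of SLC2A1 as the larger of the glucose transporters in OCI-AML3. SLC2A3 was already the larger one in FLT3-ITD controls. Per kilobase of annotated exon, HK2 led HK1 and HK3 in the means of all 4 groups. That exon length is 6296 bases for HK1 and 6064 for HK2, and their longest transcripts have 3998 and 5772. By the longest transcript, HK1 stood above HK2 in the mean of OCI-AML3 controls and in FLT3-ITD controls 1 and 3. Shares were computed per library from CPM per kilobase of annotated exon, which allows levels of different genes to be set side by side, and carry no test. SLC2A1 made up 17.1 ± 1.05% of the sum of SLC2A1 and SLC2A3 in OCI-AML3 with FHD-286, against 56.0 ± 1.37% in its controls (SD, n = 3 each). In OCI-AML3-FLT3-ITD its share was 13.3 and 13.3% with FHD-286, against 41.2 ± 2.88% in controls (SD, n = 3), with control replicate 2 at 44.3%. This share therefore differed in the same direction in both lines, and replicate 2 did not depart in it as it did in level.

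HK2 made up 76.8 ± 0.294% of hexokinase transcripts in OCI-AML3 with FHD-286, against 58.3 ± 1.94% in controls (SD, n = 3 each). It made up 62.8 and 63.9% in OCI-AML3-FLT3-ITD with FHD-286, against 53.4 to 67.6% in its controls, the highest being replicate 2. The groups overlapped there only through that replicate, and FLT3-ITD controls 1 and 3 lay below both treated libraries. Among phosphofructokinase subunits, PFKL held 74.0 ± 0.374% with FHD-286 and 81.5 ± 0.223% in controls of OCI-AML3 (SD, n = 3 each). It held 33.9 and 34.9% in OCI-AML3-FLT3-ITD with FHD-286, against 44.1 to 76.6% in controls, the highest being replicate 2. PFKP held the largest share in both treated FLT3-ITD libraries, at 60.9 and 59.7%, and also in FLT3-ITD controls 1 and 3, at 46.6 and 46.9%, but not in control replicate 2, at 21.4%. LDHA made up 20.7 ± 0.113% of LDHA and LDHB with FHD-286 and 28.3 ± 0.137% in controls of OCI-AML3 (SD, n = 3 each). Of the sum of PDK1 and PDK3, without other kinases of this kind, PDK1 held 61.4 and 63.6% in OCI-AML3-FLT3-ITD with FHD-286. Its share was 77.3 ± 2.71% in the controls of that line (SD, n = 3). In OCI-AML3 it held 59.2 ± 0.875% with FHD-286 and 61.0 ± 0.573% in controls (SD, n = 3 each). ENO1 remained above 98% of the sum of ENO1, ENO2 and ENO3 per length in every group mean.

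**Figure D3:**
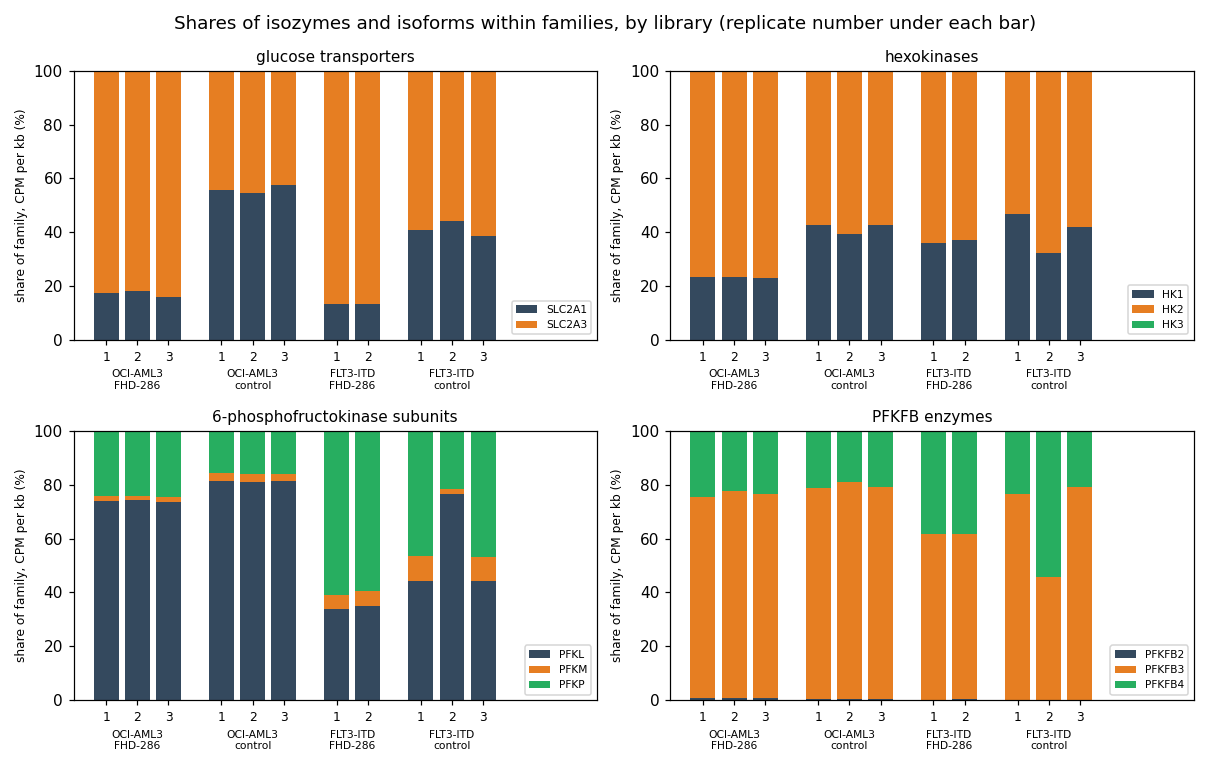
Shares (y axis, percent of the family's summed CPM per kilobase) of glucose transporters, hexokinases, phosphofructokinase subunits and PFKFB enzymes in each library, with FHD-286 left of the control of the same line and replicate numbers under the bars. SLC2A1 (dark) shrinks to 17.1% and 13.3% in the treated groups, and FLT3-ITD control replicate 2 differs from its group for PFKL, at 76.6%, and for PFKFB4 (HK3 and PFKFB2 are too low to be seen).

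The members spanned a wide range of levels, given here as mean CPM per kilobase of annotated exon. The order depends on that length, which for PKM is 8571 bases, beside 3016 for its longest transcript. In OCI-AML3 with FHD-286 the order was led by GAPDH at 709.1 ± 11.7, LDHB at 397.5 ± 2.62, ENO1 at 315.5 ± 4.02 and TPI1 at 271.9 ± 8.99. In OCI-AML3 controls GAPDH stood at 1056.7 ± 87.8, ENO1 at 559.5 ± 55.5, LDHB at 518.2 ± 29.8 and TPI1 at 392.5 ± 34.0 (SD, n = 3 each). ENO1 and LDHB in the controls differed by less than the spread of ENO1. The lowest were PFKFB2 at 0.0826 ± 0.00844 and HK3 at 0.0409 ± 0.0195 with FHD-286, against 0.05 ± 0.0129 for PFKFB2 and 0.0655 ± 0.0298 for HK3 in controls. GAPDH, ENO2, TPI1 and SLC2A3 lie within 1.4 Mb on chromosome 12, between 6533927 and 7936275 on GRCh38, and SLC2A3 was the only one of these neighbours that rose in OCI-AML3.

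Whether the effect of FHD-286 differed between the lines was tested as the effect in OCI-AML3-FLT3-ITD minus that in OCI-AML3. By edgeR's quasi-likelihood test 0 members were called higher and 0 lower, against backgrounds of 1.98% and 1.38% of all genes, and 5 members (SLC16A1, MPC2, HK2, DLAT and SLC2A3) had an unadjusted p under 0.05, against 18.1% of all genes. DESeq2's Wald test called 3, namely SLC16A1, HK2 and SLC2A3, and the share of all genes it called was not counted. By that test 5 members had an unadjusted p under 0.05, against 18.2% of all genes. In edgeR's test the difference was -1.04 for SLC2A3 (SE 0.28, adjusted p = 0.0775), -0.99 for HK2 (SE 0.28, adjusted p = 0.0867) and 0.45 for SLC16A1 (SE 0.13, adjusted p = 0.1). For SLC2A1 it was -0.65 (SE 0.37, adjusted p = 0.39), and for PFKL -0.75 (SE 0.63, adjusted p = 0.562).

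The members called for this difference depended on the libraries and the filter used. Leaving out FLT3-ITD control replicate 1 gave 0 higher and 2 lower, leaving out replicate 3 gave 0 and 1, and no filter gave 0 and 2. The shares of all genes called in these fits were not counted. Without the library labelled FLT3-ITD control 2, 6 were called higher, against 9.63% of all genes, and 2 lower, against 7.39%. SLC2A3 then differed by -0.71 (SE 0.09, adjusted p = 1.61e-05) and HK2 by -0.67 (SE 0.10, adjusted p = 6.73e-05), where SLC2A3 rose less in OCI-AML3-FLT3-ITD and HK2 was not called there. LDHA differed by 0.52 (SE 0.11, adjusted p = 0.0018), PDK3 by 0.93 (SE 0.13, adjusted p = 3.17e-05) and ENO2 by 0.76 (SE 0.17, adjusted p = 0.003), where LDHA and ENO2 fell less in OCI-AML3-FLT3-ITD and PDK3 was not called there. The other members called higher were PFKFB4 at 0.71 (SE 0.12, adjusted p = 0.000381), SLC16A1 at 0.35 (SE 0.09, adjusted p = 0.00955) and MPC2 at 0.39 (SE 0.11, adjusted p = 0.0138). PFKL, at 0.20 (SE 0.10, adjusted p = 0.226), was not called.

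Between the untreated lines, 6 members were called higher in OCI-AML3-FLT3-ITD controls than in OCI-AML3 controls, against 14.5% of all genes, and 5 lower, against 13.5%. The CPM ranges did not overlap for 6 higher and 7 lower members, against 17.1% and 19.8% of all genes. The median was -0.14, where that of all genes was 0.01. Higher were SLC2A3 at 0.86 (SE 0.19, adjusted p = 0.00846), PFKP at 0.42 (SE 0.07, adjusted p = 0.0023), ALDOA at 0.64 (SE 0.11, adjusted p = 0.003), ENO2 at 1.40 (SE 0.36, adjusted p = 0.0167), ENO3 at 0.90 (SE 0.13, adjusted p = 0.00145) and PDK1 at 0.76 (SE 0.13, adjusted p = 0.00236). Lower were HK1 at -0.24 (SE 0.07, adjusted p = 0.0228), PFKFB2 at -1.02 (SE 0.34, adjusted p = 0.0463), ENO1 at -0.36 (SE 0.10, adjusted p = 0.0242), PDHB at -0.34 (SE 0.07, adjusted p = 0.00827) and MPC2 at -0.28 (SE 0.08, adjusted p = 0.0274). Scaling by the upper quartile left 6 higher and 1 lower, and scaling by library totals 6 higher and 2 lower. The shares of all genes called under these scalings were not counted. PFKP, ALDOA, ENO3 and PDK1 kept their calls under each of the 19 alternatives, the other 7 did not.

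The other 7 calls turned on single libraries or settings. ENO1, MPC2, PFKFB2 and HK1 lost theirs without OCI-AML3 control replicate 1 or 3, treated OCI-AML3 replicate 3 or FLT3-ITD control replicate 3, with adjusted p from 0.0588 to 0.163 over the calls lost. ENO2 lost its call without any 1 OCI-AML3 control, with adjusted p from 0.0507 to 0.0603. PFKFB2 lost its call without any 1 library of OCI-AML3 and without FLT3-ITD control replicate 1 (-0.77, adjusted p = 0.115), and MPC2 also lost its call without that replicate. PDHB and SLC2A3 lost theirs only in a fit of the 2 control groups alone.

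Without the library labelled FLT3-ITD control 2, 8 members were higher, against 24.1% of all genes, and 17 lower, against 25.4%. PFKL then stood at -2.03 (SE 0.08, adjusted p = 9.69e-15), the largest of the differences between the untreated lines other than that of HK3, while with all libraries it was -1.08 and missed the threshold (SE 0.42, adjusted p = 0.0814). ENO2 was at 0.68 (SE 0.11, adjusted p = 3.79e-05), PFKM at 0.62 (SE 0.07, adjusted p = 5.55e-07) and HK2 at -0.42 (SE 0.07, adjusted p = 5.9e-05). SLC2A1 was at -0.43 (SE 0.08, adjusted p = 7.11e-05), where all libraries gave 0.04 (SE 0.25, adjusted p = 0.928). ALDOC was at -0.53 (SE 0.09, adjusted p = 6.48e-05), where all libraries gave 0.76 (SE 0.53, adjusted p = 0.309). SLC2A3 was at 0.53 (SE 0.07, adjusted p = 1.12e-06). The other members that gained a call were MPC1, higher at 0.26, and PDK3, GAPDH, PGAM1, TPI1, PGK1, SLC16A3, PKM and HK3, lower, of which all but HK3 lay between -0.67 and -0.24.

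The departure of that library was uneven among the members. It had the highest level of all controls for 13 of 36 members (36.1%, against 26.3% of all genes) and the lowest for 9 (25%, against 26.9%). Its level was nearer to the OCI-AML3 controls than to the other FLT3-ITD controls for 19 members (52.8%, against 52.5%). ALDOC had 166.1 CPM in it, against 34.9 and 27.7 CPM in FLT3-ITD controls 1 and 3, a ratio of 5.33. PFKFB4 stood 4.64 times and PFKL 3.79 times above those controls, while PFKM stood at 0.47 of them. HK3, near the detection limit, is left out of this order. The other members that departed most upward were ALDOC, PFKFB4, PFKL, ENO2 and SLC2A1, of which PFKL alone was at the level of the OCI-AML3 controls.

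**Figure D4:**
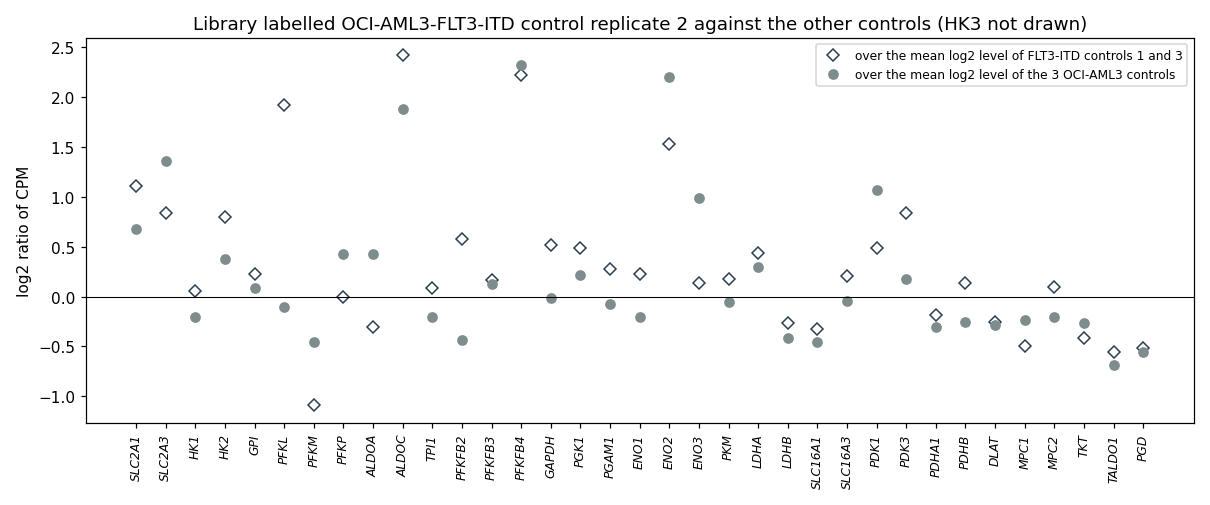
Log2 ratio of CPM (y axis) in the library labelled FLT3-ITD control 2 over the other FLT3-ITD controls (diamonds) and over the OCI-AML3 controls (circles) for each member (x axis) but HK3. ALDOC, PFKFB4 and ENO2 lie high against both, at 5.33, 4.64 and 2.88 times the other FLT3-ITD controls, whereas the PFKL circle lies near 0 and its diamond does not.

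Further genes of carbohydrate metabolism were taken from 6 other lists. Of 26 measured further genes of glycolysis and glucose transport, 8 were called higher and 5 lower in OCI-AML3, and 5 higher and 6 lower in OCI-AML3-FLT3-ITD, with medians of 0.21 and -0.01. The shares of all genes were 19.8% higher and 21.5% lower in OCI-AML3, and 15.6% and 14.9% in OCI-AML3-FLT3-ITD, and they hold for each list below. Without FLT3-ITD control replicate 2 the counts were 12 higher and 7 lower in OCI-AML3, and 9 and 7 in OCI-AML3-FLT3-ITD with a median of 0.15. The shares of all genes were then 29% and 29.8%, and 24.8% and 24.2%. ADPGK, an ADP-dependent glucokinase, fell by 0.71 (SE 0.06, adjusted p = 7.16e-06) in OCI-AML3 and by 0.76 (SE 0.07, adjusted p = 2.18e-05) in OCI-AML3-FLT3-ITD. SLC2A13, a myo-inositol transporter of the same family, rose by 1.20 in OCI-AML3 (SE 0.12, adjusted p = 3.28e-05). Of 10 further pentose phosphate genes, 6 fell and 1 rose in OCI-AML3 and 2 fell and 1 rose in OCI-AML3-FLT3-ITD. Without control replicate 2 these counts were 6 and 2, and 3 and 2. H6PD, the reticular hexose 6-phosphate dehydrogenase, was the one that rose in OCI-AML3 with all libraries, by 0.82 (SE 0.23, adjusted p = 0.014), and RPIA, the ribose 5-phosphate isomerase, fell by 0.77 (SE 0.12, adjusted p = 0.000516).

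Of 16 further genes of pyruvate metabolism, 7 fell and 1 rose in OCI-AML3, and 4 fell and 1 rose in OCI-AML3-FLT3-ITD. Without FLT3-ITD control replicate 2, 8 fell and 3 rose in OCI-AML3, and 8 fell and 4 rose in OCI-AML3-FLT3-ITD. The gene that rose in both with all libraries was PDP1, the phosphatase that opposes the PDK kinases, by 1.17 (SE 0.11, adjusted p = 1.73e-05) and 0.87 (SE 0.12, adjusted p = 0.00038). PDK1 and PDHA1 fell in the same libraries. Of 21 tricarboxylic acid cycle genes, 13 fell and 1 rose in OCI-AML3, and 8 fell and 0 rose in OCI-AML3-FLT3-ITD. Without control replicate 2, 14 fell and 2 rose in OCI-AML3, and 13 fell and 1 rose in OCI-AML3-FLT3-ITD. IDH2, the mitochondrial NADP-dependent isocitrate dehydrogenase, fell by 1.5 (SE 0.08, adjusted p = 6.41e-07) and by 1.59 (SE 0.10, adjusted p = 2.52e-06). Of 18 glycogen genes, 5 rose and 3 fell in OCI-AML3, and of 10 hexosamine genes 1 rose and 3 fell. In OCI-AML3-FLT3-ITD these counts were 1 and 2, and 2 and 0. Without control replicate 2, the glycogen counts were 8 higher and 4 lower in OCI-AML3 and 3 and 4 in OCI-AML3-FLT3-ITD, and the hexosamine counts 2 and 4, and 5 and 0.

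Promoters were compared as a description, over windows from 250 bases before to 50 after each start in the RefSeq table of GRCh38.p14. Of the members, 33 had an entry, with 62 promoters, and PFKFB2, SLC16A1 and SLC2A3 had none. ACGTG was found on either strand in 35.5% of members' promoters, against 21.4% of all 35116 promoters, and CACGTG, the E-box that contains it, in 11.3%, against 7.26%. GCGTG was found in 45.2%, against 36.5%, and TATAAA, on the gene's strand, in 4.84%, against 7.33%. GAGGAAGT, an ETS-type motif, was found in 1.61%, against 2.59%. Counted by gene, ACGTG was found for 54.5% of members and 24.9% of all genes, but members had more listed promoters per gene. Of the members called lower in both lines, it was present for LDHA, PDK1, PGK1, GPI, GAPDH, ALDOA, TPI1, PFKM, PFKFB3 and SLC16A3. It had no match for SLC2A1, HK1, ENO1, PGAM1, PDHA1 and TALDO1, and SLC16A1 had no entry. With all libraries, DLAT, ENO2, PDK3, PFKP and PGD were called lower in OCI-AML3 only, and ACGTG was present for them. It was present also for HK2, which rose in OCI-AML3, and for ALDOC and PDHB, which were not called. It had no match for LDHB and PKM, also lower in OCI-AML3 only, nor for the other members with an entry. These matches say only that the letters occur in the windows.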

How the data were processed

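RNA was sequenced from 11 libraries of 2 human AML lines, and the authors deposited raw counts per Ensembl gene for all of them. Per the submitters' processing notes, STAR placed the reads on hg38. The STAR version, the counting program, its strand setting and its annotation are not given in the sources used here. Of 58037 rows, 57433 were found in GENCODE 29, and all 36 members were found.

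The counts were used as deposited. Genes were kept by filterByExpr (minimum count 10, minimum total 15), scaled by TMM and tested in edgeR 4.0.16 (R 4.3.3), with 1 mean per group over all 11 libraries and a two-sided quasi-likelihood test. The p-values were adjusted by Benjamini-Hochberg over 18908 genes, and those under 0.05 were called. The standard error is the log2 fold change divided by the root of F. The fit was also run on simulated data with planted changes and the same spread for every gene. No simulated library stood apart from its group, so that run does not bear on the effect of FLT3-ITD control replicate 2. Alternatives were other scalings, filters, DESeq2 1.42.0, the compared groups alone, a replicate block and each library left out. Total counts were 58397190 to 79172389, and 3 counts, the limit that a count of 0 allows, correspond to 0.0366 to 0.0548 CPM, for counting error only.

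The members and lists were chosen with earlier results of these data known. Values by library are given for members called with a log2 change of at least 0.58 with FHD-286, or of at least 1 between untreated lines, and for some named beside them. In each other list the 3 genes with the smallest p could be named.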

Additional observations from a re-analysis of the deposited data

Results flagged for a closer look

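The effect of FHD-286 in OCI-AML3-FLT3-ITD minus that in OCI-AML3 was tested by edgeR's quasi-likelihood test, with an adjusted p under 0.05 as threshold. With all libraries, 0 members passed after the filter on low counts, and 2 passed, as lower, with no filter. Without the library labelled FLT3-ITD control 2, 8 members passed after the filter. The difference was -0.71 for SLC2A3 and -0.67 for HK2, whose change was lower in the FLT3-ITD line. It was 0.93 for PDK3, 0.76 for ENO2, 0.71 for PFKFB4, 0.52 for LDHA, 0.39 for MPC2 and 0.35 for SLC16A1, whose change was higher in the FLT3-ITD line. With all libraries SLC2A3 had -1.04 (adjusted p = 0.0775) and HK2 -0.99 (adjusted p = 0.0867).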

How the results depend on the processing

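Of 2690 values of single members recomputed under the alternatives, 2511 kept their side of the threshold, and 65 of these, called in neither fit, changed sign. A call was lost by 96 and gained without a change of sign by 79. A further 4, not called in the original fit, turned direction and gained a call. In OCI-AML3, the members called higher numbered 6 with library totals, 5 in the fit of the compared groups alone and 1 to 5 with 1 library left out. In OCI-AML3-FLT3-ITD they numbered 3, 0 and 0 to 4, and those called lower numbered 4 in the fit of the compared groups alone and 9 to 24 with 1 library left out. Where a treated FLT3-ITD library was left out, the lone library is assumed to vary like the other groups. For the difference between the lines, DESeq2's Wald test called 1 higher and 2 lower, no filter gave 2 lower, and leaving out 1 library gave 0 to 6 higher and 0 to 2 lower. Between the untreated lines, the members called lower numbered 1 with upper-quartile scaling, 2 with library totals, 3 without a filter, 0 in the fit of the compared groups alone and 1 to 17 with 1 library left out. The 4 values that turned did so without the library labelled FLT3-ITD control 2. PFKFB4 in OCI-AML3-FLT3-ITD ranged from -0.85 to 0.67 with 1 library left out, and its difference between the lines from -0.81 to 0.71. Between the untreated lines ALDOC ranged from -0.53 to 1.16 and SLC2A1 from -0.43 to 0.25. The cause of these shifts was not tested. Among the alternatives, shares of all genes called were counted only without the library labelled FLT3-ITD control 2. The other counts of members therefore have no background beside them. With the replicate block, the counts were 3 higher and 24 lower in OCI-AML3, 1 and 18 in OCI-AML3-FLT3-ITD, 0 and 0 for the difference, and 6 and 4 between the untreated lines, where PFKFB2 lost its call (-1.06, adjusted p = 0.0589). Same-numbered libraries of different groups had correlations of their deviations from -0.0288 to 0.122, so the numbers were not taken to pair the libraries. Depth limits HK3 and PFKFB2, and the 2 treated FLT3-ITD libraries limit the calls in that line.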
